A study of Arabidopsis thaliana with 11 samples.

Results

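The genes described here encode WRKY, bHLH and NAC transcription factors (TFs), and they were taken from the array by name. A gene was a member where the table of the array platform paired a probe set with exactly 1 gene whose symbol was MYB, NAC, ANAC, WRKY, BHLH or ERF followed by a number, with WRKY53, WRKY75, MYB66 and ANAC096 left out. The rule found 11 genes among the 19524 features tested (a feature is 1 probe set per named gene, or a probe set without a name). Of these, 5 were WRKY genes, 5 were bHLH genes and 1 was a NAC gene. No MYB or ERF gene was found by the rule, and members of the 5 families whose probe sets carried no name or another kind of name were not analysed under it. Each of the 11 genes was read from 1 probe set and matched a locus code, and all 11 were tested.

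Labeled RNA was measured in protoplasts from Col-0 roots on 11 ATH1 arrays. In 6 samples (4tu-bZIP1), the cells were transiently transfected with 35S::GR::bZIP1, which expresses bZIP1 from a constitutive viral promoter as a fusion with GR, the steroid receptor domain that holds the TF in the cytoplasm until dexamethasone (DEX) is given. In 5 samples (4tu-EV), they received the empty vector pJD385_35S::GR. The methods name another plasmid, pBeaconRFP, for the bZIP1 construct, and the part of any further difference between the plasmids was not tested. Cells of both groups were given 20 mM KNO3 and NH4NO3 as nitrogen source (1 h 40 min by the labels), 35 µM cycloheximide (CHX) for 20 min to block translation, 10 µM DEX for 5 h, and 1.5 mM 4-thiouracil (4tU) with 0.2 mM uracil for 20 min, so the empty vector cells also carried GR and met every agent. RNA made during the labeling was then pulled down, and the values are intensities after GCRMA normalization, in linear units. The labels call the samples of a group biological replicates.

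WRKY factors bind W-box elements and are best known from immunity, senescence and nutrient responses. The bHLH factors bind E-box elements as dimers, and all 5 members here belong to a set that acts on iron deficiency in roots: bHLH34, bHLH104 and bHLH115 (with ILR3, of the same subgroup) activate the response, bHLH121 is their partner, and BHLH101 is an activator of another subgroup that lies downstream of them. NAC factors share a DNA-binding domain at their N terminus and act in development and stress.

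None of the 11 genes passed the threshold between 4tu-bZIP1 and 4tu-EV, which was a Benjamini-Hochberg adjusted p under 0.1 in limma. Over all features, 36 (0.184%) passed, 32 of them higher in 4tu-bZIP1 and 4 lower. At an unadjusted p under 0.05, 1 member (WRKY22) was higher and 0 were lower. Over all features, 295 (1.51%) were higher at that level and 632 (3.24%) lower, the reverse of the balance among the 36. No member had groups that did not overlap, where 0.855% of all features had such groups. The smallest adjusted p among the members was 0.847. Of the 9 members above the floor of the array, all of them in both groups, 5 had a positive log2 fold change and 4 a negative one. Their median log2 fold change was 0.02, and that of all features, those at the floor included, was 0.00. With 6 arrays against 5, the intervals below state how large a change each gene could still have had.

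On the 5 arrays of 4tu-EV, 7 of the 11 members (63.6%) had a mean intensity of at least 32, against 37.7% of all features. At least 100 was reached by 5 members (45.5%) and by 22.4% of all features. By family, 4 of 5 WRKY genes and 3 of 5 bHLH genes reached 32, and the NAC gene did not. The same counts of members reached each level on the 6 arrays of 4tu-bZIP1. Probe sets differ in how strongly they bind, so these are shares over a level and give no order of genes.

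**Figure D1:**
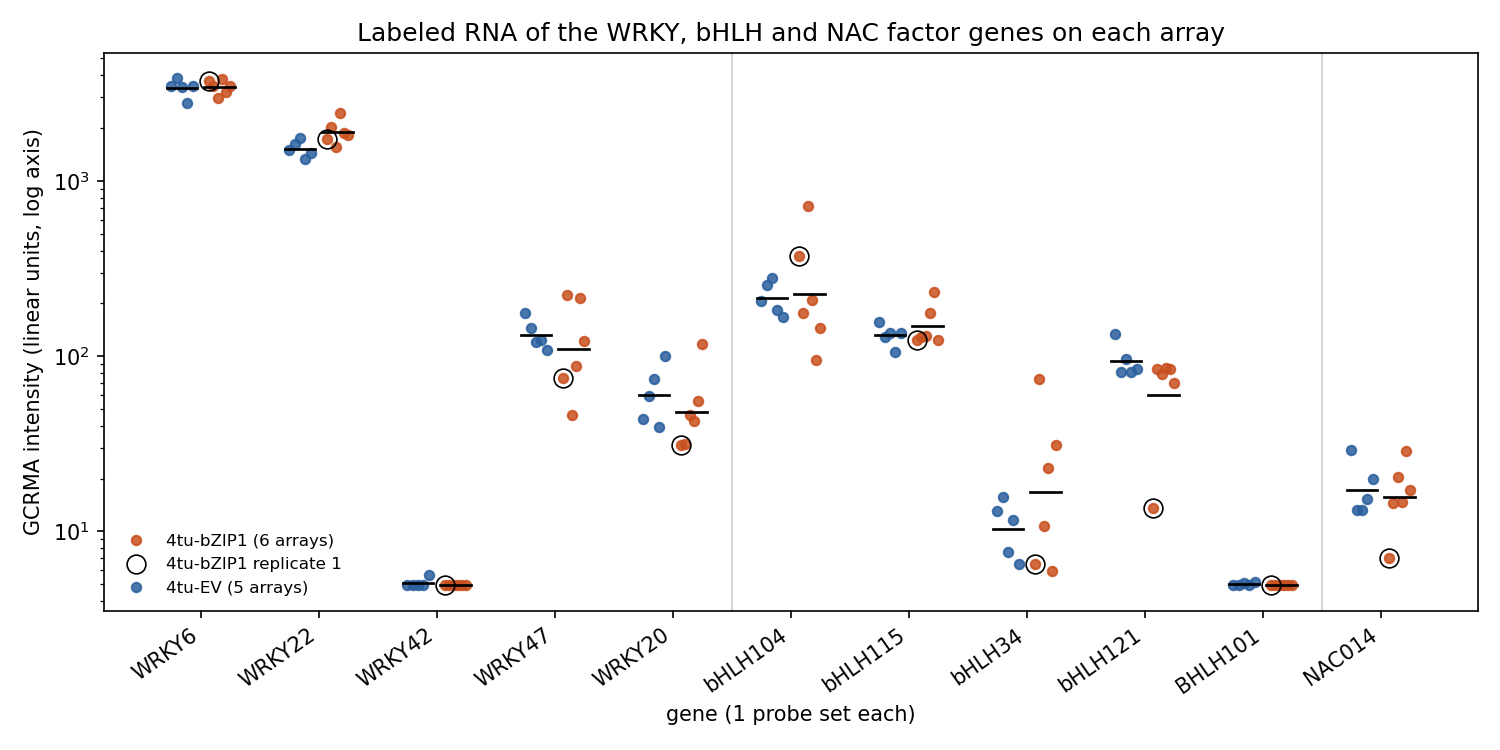
GCRMA intensity of each of the 11 genes on each array (linear units on a log axis, 1 probe set per gene). Points are arrays, 6 of 4tu-bZIP1 and 5 of 4tu-EV, the bars are means of the log values, and rings mark 4tu-bZIP1 replicate 1. The groups overlap for every gene, and WRKY42 and BHLH101 lie at the floor of 4.92.

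Among all 11 arrays, 4tu-bZIP1 replicate 1 stood apart. Its median correlation with the other arrays was 0.879, against 0.943 to 0.965 for the others, and 6312 of its features reached an intensity of 32, against 6888 to 7237. Results that rest on it are therefore given with and without it. Only 4 of 49 cell type marker symbols were found on the platform table, so the labelled tissue could be checked only in part. The root hair expansin EXPA7 was at 55.0 on 4tu-bZIP1 replicate 1 and no higher than 5.18 on any other array. The other hair expansin, EXPA18, was no higher than 4.99. Of the markers of leaf mesophyll, LHCB4.1 lay between 6.21 and 16.1 and RCA between 5.33 and 8.12. Hence EXPA7 was near the floor on 10 of the 11 arrays and EXPA18 on all 11. No other root marker of the list was found, and the part of cell types in the values below was not tested. In these pools of cells, fewer cells of a type and less RNA per cell cannot be told apart.

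WRKY6 (AT1G62300) is a TF of senescence and defense that also represses the phosphate transporter gene PHO1. It was at 3499.9, 3851, 3439, 2779 and 3477 on the arrays of 4tu-EV and between 2956 and 3830 on those of 4tu-bZIP1, with a median of 3495. The groups lay over the same range, with means of 3409 ± 389 (SD, n = 5) and 3454 ± 319 (SD, n = 6). The log2 fold change was 0.02 (SE 0.09, adjusted p = 0.978 by limma), and its 95% interval ran from 0.881-fold to 1.17-fold. This was the narrowest interval of the 9 members above the floor. For WRKY6, a change beyond those bounds in either direction therefore lay outside the interval.

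WRKY22 (AT4G01250) acts in the immune response to bacterial flagellin, downstream of a MAP kinase cascade. It was at 1501, 1616, 1752, 1341 and 1452 on the arrays of 4tu-EV. On those of 4tu-bZIP1 it ran from 1563 to 2444 with a median of 1850. All 6 arrays of 4tu-bZIP1 lay above the mean of 4tu-EV and 4 lay above its highest array, while replicates 1 and 3 lay within its range. The means were 1914 ± 303 (SD, n = 6) and 1533 ± 157 (SD, n = 5). The log2 fold change was 0.31 (SE 0.11, 95% interval 0.06 to 0.56), with an unadjusted p of 0.0204 and an adjusted p of 0.847 by limma. The exact two-sided permutation test over the 462 divisions of the arrays gave p = 0.0216, where the smallest p it can give is 0.0022. WRKY22 therefore missed the threshold over all features, and its interval reached from 1.04-fold to 1.48-fold. When each array was left out in turn, the log2 fold change lay between 0.24 and 0.37. The unadjusted p by limma stayed under 0.05 in 10 of 11 such fits and was 0.0527 without 4tu-EV replicate 4, the lowest array of its group.

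WRKY47 (AT4G01720), a TF known for its part in cell wall modification under aluminum, was at 176, 144, 121, 124 and 108 on the arrays of 4tu-EV. On those of 4tu-bZIP1 it ran from 46.1 to 222 with a median of 106. The arrays of 4tu-bZIP1 reached both below and above those of 4tu-EV, so the difference lay well within the spread. Its log2 fold change was -0.27 (SE 0.40, 95% interval -1.17 to 0.62, adjusted p = 0.869 by limma). The value was -0.02 without 4tu-bZIP1 replicate 3, the lowest array, and -0.16 without its replicate 1.

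WRKY20 (AT4G26640), a WRKY factor, was at 43.8, 59.3, 73.7, 39.6 and 99.8 on the arrays of 4tu-EV. On those of 4tu-bZIP1 it ran from 31.1 to 117 with a median of 44.2. The highest array of all was thus in 4tu-bZIP1, as were the lowest ones. Its log2 fold change was -0.31 (SE 0.37, 95% interval -1.15 to 0.53, adjusted p = 0.847 by limma). It moved to -0.57 without 4tu-bZIP1 replicate 6, to -0.19 without its replicate 1 and to -0.13 without 4tu-EV replicate 5, and none of these passed the threshold.

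WRKY42 (AT4G04450), which like WRKY6 represses PHO1, was no higher than 5.60 on any array. BHLH101 was no higher than 5.13. Both were near the lowest value of the table (4.92), as were 3185 features (16.3%) whose intensity stayed under 6 on all 11 arrays. No fold change is given for either gene, since values at the floor have no order.

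bHLH104 (AT4G14410), an activator of the iron deficiency response, was at 207, 254, 280, 183 and 168 on the arrays of 4tu-EV. On those of 4tu-bZIP1 it was at 374, 177, 721, 209, 95.6 and 144 in replicates 1 to 6. Replicates 1 and 3 lay above every array of 4tu-EV, and replicates 5 and 6 lay below every one. On average the log2 fold change was 0.08 (SE 0.47, 95% interval -0.97 to 1.13, adjusted p = 0.987 by limma). It was -0.25 without 4tu-bZIP1 replicate 3, -0.06 without its replicate 1 and 0.33 without its replicate 5, so its sign depended on single arrays.

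bHLH115 (AT1G51070), of the same subgroup, was at 156, 128, 136, 106 and 135 on the arrays of 4tu-EV and between 123 and 231 on those of 4tu-bZIP1, with a median of 129. Replicates 4 and 5 of 4tu-bZIP1 lay above every array of 4tu-EV, and the other 4 lay within its range. Its log2 fold change was 0.17 (SE 0.18, 95% interval -0.23 to 0.58, adjusted p = 0.847 by limma). It was 0.04 without 4tu-bZIP1 replicate 5, the highest array.

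bHLH34 (AT3G23210), the third activator of this subgroup among the members, was at 13.1, 15.6, 7.62, 11.6 and 6.55 on the arrays of 4tu-EV. On those of 4tu-bZIP1 it was at 6.55, 74.2, 10.8, 23.1, 5.94 and 31.1 in replicates 1 to 6. Replicates 2, 4 and 6 of 4tu-bZIP1 were higher than any array of 4tu-EV, and 8 of the 11 arrays were under 16, where the probe set was close to the floor. Its log2 fold change was 0.70 (SE 0.65, adjusted p = 0.847 by limma), and its 95% interval ran from 0.592-fold to 4.45-fold. This was the highest log2 fold change among the members above the floor, and it fell to 0.27 without 4tu-bZIP1 replicate 2.

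bHLH121 (AT3G19860), the partner of these activators, was at 133, 81.6, 96.0, 81.1 and 84.4 on the arrays of 4tu-EV. On those of 4tu-bZIP1 it was at 13.5 in replicate 1 and between 70.3 and 86.0 in the other 5. The value of replicate 1 lay far below every other array. With it, the log2 fold change was -0.64 (SE 0.48, 95% interval -1.70 to 0.42, adjusted p = 0.847 by limma). Without that array it was -0.21 (SE 0.14, adjusted p = 0.863 by limma), so the size of the fold change rested on 1 library.

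NAC014 (AT1G33060), the only NAC gene among the members, was at 29.3, 13.2, 13.2, 15.4 and 19.9 on the arrays of 4tu-EV and between 7.07 and 28.8 on those of 4tu-bZIP1, with a median of 16.0. The lowest array was again 4tu-bZIP1 replicate 1. Its log2 fold change was -0.14 (SE 0.35, 95% interval -0.92 to 0.65, adjusted p = 0.941 by limma), and it was 0.10 without that array.

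**Figure D2:**
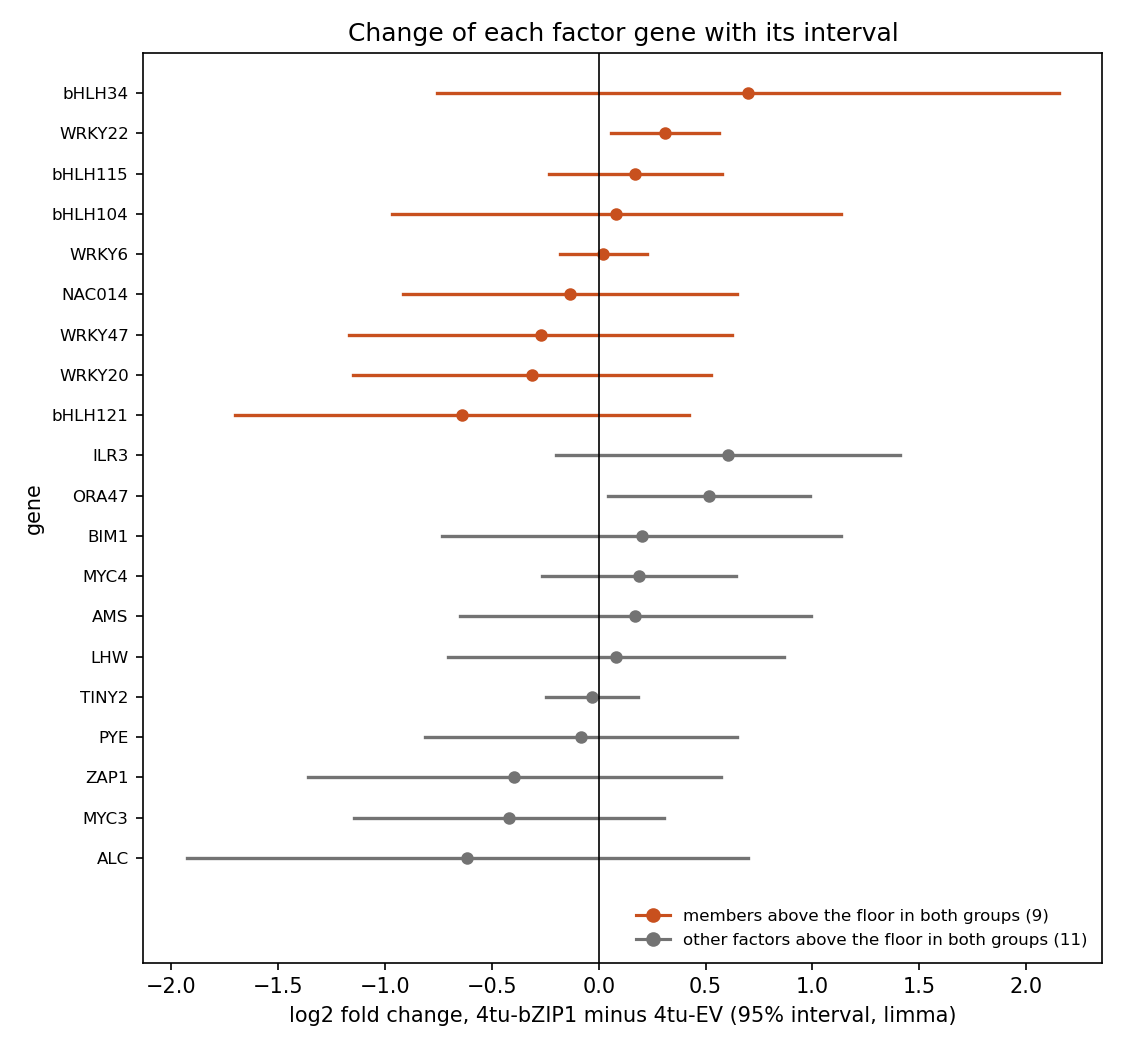
Log2 fold change of each gene, 4tu-bZIP1 minus 4tu-EV, with the 95% interval by limma, for the 9 members and the 11 other factors of the same families that were above the floor in both groups. Among the members the interval of WRKY22 alone lies above 0 (0.06 to 0.56), and among the other factors that of ORA47 alone does (0.04 to 0.99), and neither gene passed the adjusted threshold.

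The genes differed widely in their spread between arrays. The SD of the log2 intensity within groups was 0.15 for WRKY6 and 0.19 for WRKY22, and it was 1.12 for bHLH34. Spread varied with level on these arrays, so each gene was set beside the features whose mean log2 intensity lay within 0.5 of its own. Of such features, 91.9% had a larger SD than WRKY6 and 94.6% had a larger SD than WRKY22. For bHLH115, with an SD of 0.31, this share was 96.0%. At the other end, 25.3% of like features had a larger SD than bHLH104 (0.80) and 7.47% had a larger SD than bHLH34. Hence WRKY6, WRKY22 and bHLH115 were among the steadier probe sets of their level, and bHLH34 and bHLH104 among the more variable.

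**Figure D3:**
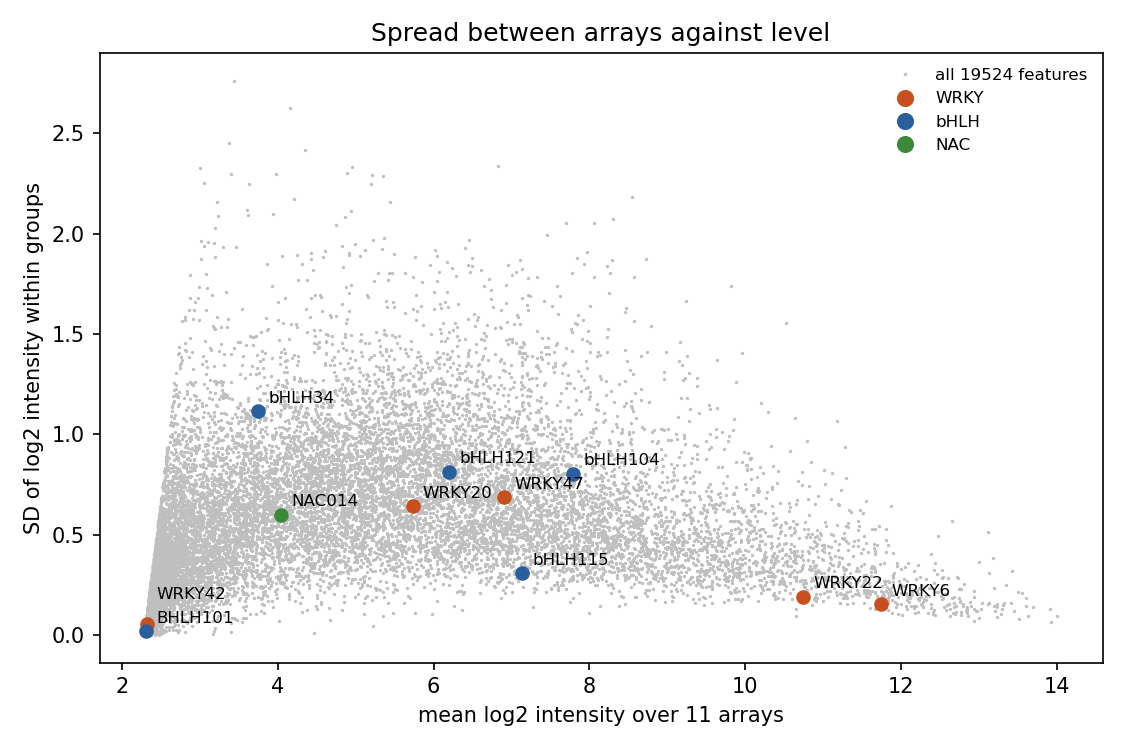
SD of the log2 intensity within groups against the mean log2 intensity over the 11 arrays, for all 19524 features (grey points) and the 11 members (coloured by family). WRKY6 (0.15) and WRKY22 (0.19) lie low at the right, bHLH115 (0.31) lies at the lower edge for its level, and bHLH34 (1.12) lies high.

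The larger spread was mostly that of the 4tu-bZIP1 arrays. The SD of log2 intensity was 1.04 in 4tu-bZIP1 and 0.31 in 4tu-EV for bHLH104, 1.42 and 0.53 for bHLH34, and 0.89 and 0.27 for WRKY47. Of the 9 members above the floor, 8 (88.9%) had the larger SD in 4tu-bZIP1, with WRKY6 as the exception. The same held for 71.9% of the 16339 features above the floor, so the larger spread in 4tu-bZIP1 was not limited to the members. Without 4tu-bZIP1 replicate 1, the shares were 66.7% of the members and 58.6% of those features.

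Factors of the same families under other names were looked up from a list of 177 symbols, of which 19 were found (12 bHLH, 5 AP2/ERF, 1 WRKY and 1 MYB). Of these, 4 were near the floor, among them SPCH and MUTE, TFs of the stomatal lineage. None of the 19 passed the adjusted threshold, and 1 was higher at an unadjusted p under 0.05, beside the 1.51% of all features. A further 4 were above an intensity of 6 on arrays of 4tu-bZIP1 only. Of the 11 above it in both groups, 6 had a positive log2 fold change and 5 a negative one.

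The 1 factor past the unadjusted level was ORA47 (AT1G74930), an AP2/ERF activator of jasmonate synthesis. It was at 266, 347, 494, 414 and 261 on the arrays of 4tu-EV and between 372 and 707 on those of 4tu-bZIP1, with a median of 464. All 6 arrays of 4tu-bZIP1 lay above the mean of 4tu-EV (356 ± 99.4, SD, n = 5), and 2 lay above its highest array. The log2 fold change was 0.52 (SE 0.21), with an unadjusted p of 0.0354 and an adjusted p of 0.847 by limma, and p = 0.0498 by the exact two-sided permutation test. It was under an unadjusted 0.05 by limma in 6 of 11 fits with 1 array left out and at 0.0701 without 4tu-bZIP1 replicate 1. ZAP1 (AT2G04880), a WRKY factor also called WRKY1, had a log2 fold change of -0.40 (SE 0.43, adjusted p = 0.847 by limma). It was -0.02 without 4tu-EV replicate 5, so it rested on that array. MYC3 (AT5G46760), a bHLH factor of jasmonate signaling, had -0.42 (SE 0.32, adjusted p = 0.847 by limma), and -0.21 without 4tu-EV replicate 4.

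Genes of the iron deficiency response were then read, since 5 members belong to it, from a list of 32 locus codes added at that stage. Of these, 6 were found, among them ILR3 and PYE, already counted in the other factors above, and AT1G74770, which was near the floor. None of the 6 passed the adjusted threshold, and 1 was lower at an unadjusted p under 0.05, beside the 3.24% of all features. This was AT3G13610, named F6'H1 in RefSeq, the enzyme that makes the precursor of the coumarins that roots release for iron uptake. It was at 66.7, 43.8, 94.0, 121 and 97.5 on the arrays of 4tu-EV and between 32.1 and 59.9 on those of 4tu-bZIP1, with a median of 53.1. The arrays of 4tu-bZIP1 lay below those of 4tu-EV but for replicate 2 of the latter, which lay among them. The log2 fold change was -0.72 (SE 0.27, 95% interval -1.32 to -0.11), with an unadjusted p of 0.0245 and an adjusted p of 0.847 by limma, and p = 0.0390 by the exact two-sided permutation test. With 1 array left out the unadjusted p by limma was under 0.05 in 7 of 11 fits, and it was 0.0630 without 4tu-EV replicate 4. ILR3 (AT5G54680), the bHLH activator named above, had a log2 fold change of 0.60 (SE 0.36, 95% interval -0.20 to 1.41, adjusted p = 0.847 by limma). It was 0.37 without 4tu-bZIP1 replicate 3, 0.80 without replicate 5 and 0.22 with array weights. PYE (AT3G47640), a bHLH repressor of the iron deficiency response, had -0.08 (SE 0.33, adjusted p = 0.975 by limma), and 0.17 without 4tu-bZIP1 replicate 1. AT1G18910 had a positive log2 fold change of 0.33 (SE 0.42, adjusted p = 0.849 by limma). It was at 316 on 4tu-bZIP1 replicate 1 and between 51.3 and 103 on the other arrays. AT1G47400, under 16 on all 11 arrays, had 0.40 (SE 0.32, adjusted p = 0.847 by limma).

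Although no member passed the threshold between the groups, some pairs of factor genes varied together from array to array. Only pairs within a family were formed, so whether pairs across families varied alike was not tested. For each gene, the deviation of the log2 intensity from its group mean was taken, and the deviations were correlated over the 11 arrays for 25 pairs, 15 of bHLH genes and 10 of WRKY genes. The pairs were chosen after the values had been seen, and the adjustment over the 25 pairs does not cover that choice. The bHLH factors MYC3, BIM1, ALC, LHW, AMS and MYC4, also above the floor in both groups, were in no pair. The permutations (100000, two-sided) moved arrays only within their group. The deviations of bHLH104 and ILR3 had a Pearson r of 0.938 (permutation p = 0.00032, adjusted over the 25 pairs 0.008) and a Spearman rho of 0.955 (permutation p = 0.00014, adjusted 0.0035). ILR3 was at 217, 102, 366, 200, 80.5 and 128 in replicates 1 to 6 of 4tu-bZIP1 and at 106, 105, 133, 101 and 85.3 in those of 4tu-EV. Replicate 3 of 4tu-bZIP1 was thus the highest array for both genes and replicate 5 the lowest.

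The relation of bHLH104 and ILR3 held within each group, with r = 0.943 in 4tu-bZIP1 and 0.875 in 4tu-EV. It was 0.783 without the 2 arrays farthest from the median of bHLH104 and 0.935 without 4tu-bZIP1 replicate 1. Among the 6997 features with a mean log2 intensity of at least 5, ILR3 had the second highest r with bHLH104 (0.0286% of them were as high or higher). Whether their probe sets bind each other's transcripts was not tested.

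For bHLH121 and PYE, r was 0.896 (permutation p = 0.00463, adjusted 0.0386) and rho was 0.802 (permutation p = 0.00462, adjusted 0.0385). PYE was at 24.4 on 4tu-bZIP1 replicate 1 and between 47.1 and 85.8 on the other arrays, so both genes had their lowest value there. Without that array r was 0.626, and without the 2 arrays farthest from the median of bHLH121 it was 0.602, so the size of r rested on 1 library. As many as 216 of the 6997 features (3.09%) had an r with bHLH121 at least as high.

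For WRKY20 and ZAP1, r was 0.832 (permutation p = 0.00098, adjusted 0.0122) and rho was 0.836 (permutation p = 0.00301, adjusted 0.0376). ZAP1 was at 222, 364, 451, 260, 462 and 718 in replicates 1 to 6 of 4tu-bZIP1 and at 369, 379, 510, 318 and 1426 in those of 4tu-EV. The highest array of each group was the same for both genes, replicate 6 of 4tu-bZIP1 and replicate 5 of 4tu-EV, and r was 0.652 without these 2 arrays. It was 0.848 within 4tu-bZIP1 and 0.898 within 4tu-EV. Of the 6997 features, 18 (0.257%) had an r with WRKY20 at least as high.

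The other 22 pairs had r between -0.462 and 0.664, and the smallest adjusted p among them was 0.168. WRKY6 and WRKY22, the members above the floor with the smallest spread, were the pair at 0.664. Pairs that held bHLH34 or bHLH115 were among these 22, and BHLH101 was in no pair.

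**Figure D4:**
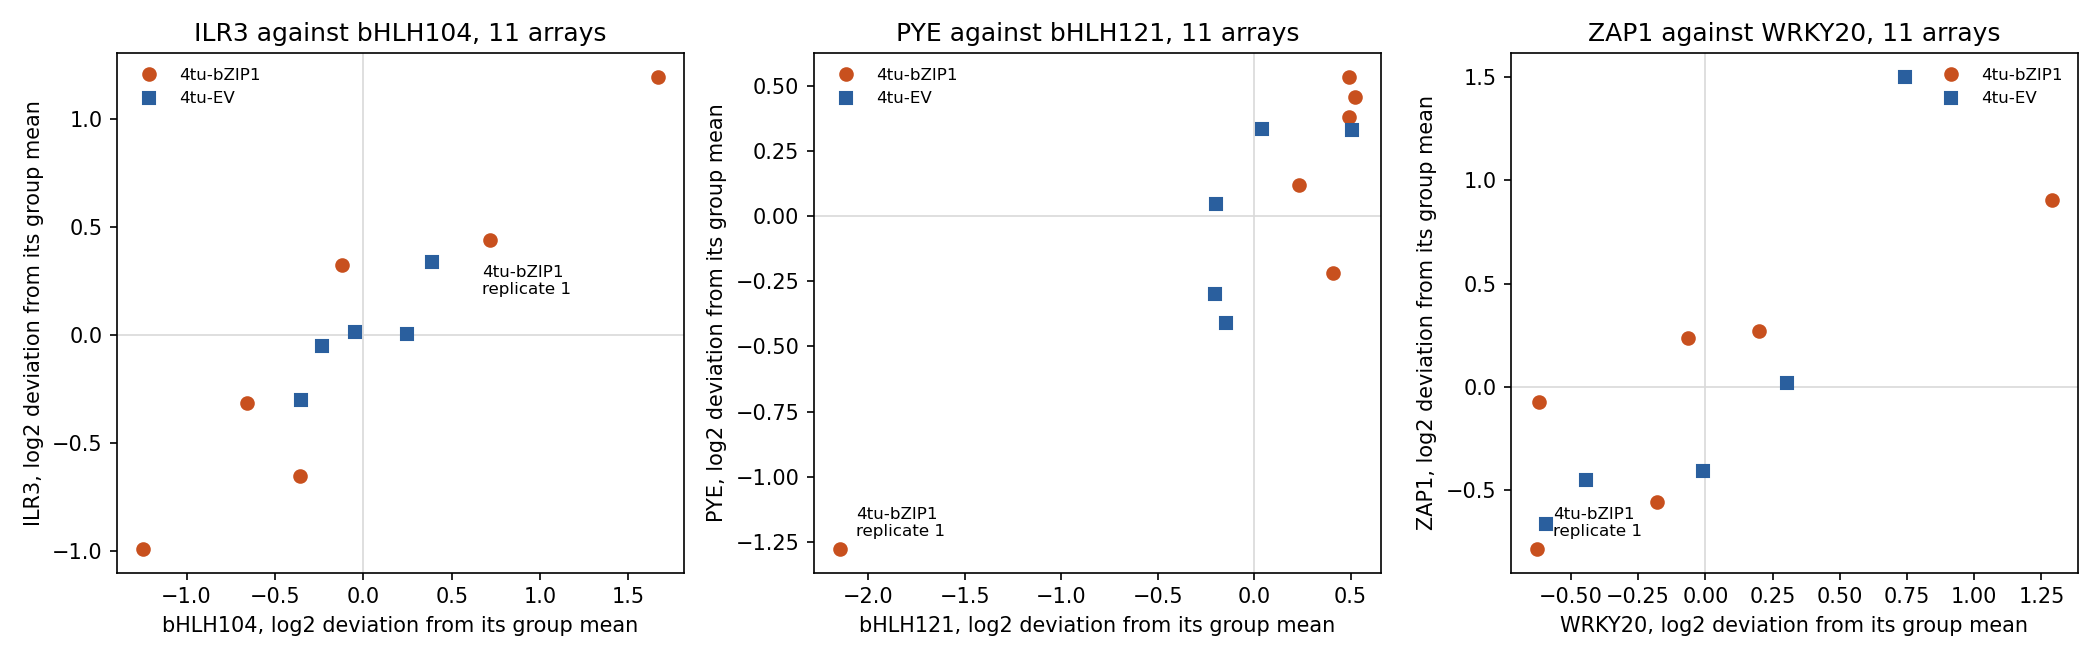
Log2 deviation from the group mean on each of the 11 arrays (6 of 4tu-bZIP1, 5 of 4tu-EV) for ILR3 against bHLH104, PYE against bHLH121 and ZAP1 against WRKY20. Points of both groups lie along 1 line in the first panel (r = 0.938), 4tu-bZIP1 replicate 1 lies alone at the lower left in the second (r = 0.896), and 1 array of each group lies far out in the third (r = 0.832).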

How the data were processed

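The authors pulled down 4tU-labeled RNA, amplified it, hybridized it to ATH1 arrays and normalized the arrays with GCRMA (cited in the methods by its Bioconductor release). The deposited table holds 1 intensity per probe set and array on the linear scale, for 22810 probe sets. The lowest value, shared by many dim probe sets, was 4.92 on every array. The labels give the time with nitrogen as 1 h 40 min, whereas the methods give a longer one. Values were log2-transformed with no pseudocount. The 64 control probe sets and 2307 with the same value on all arrays were left out, as were 503 paired with several genes and 330 without a listed gene whose suffix marks shared sequence. For each gene the probe set with the highest mean was kept, which gave 19524 features. The platform table names 13513 probe sets with 1 gene and does not list 8730.

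Groups and replicate numbers came from the sample labels. The comparison was 4tu-bZIP1 minus 4tu-EV fitted by lmFit and eBayes of limma (version 3.58.1, under R 4.3.3), with Benjamini-Hochberg adjustment over all features and a threshold of 0.1 after the methods, beside an exact two-sided permutation test for single genes. Other steps used scipy 1.17.1, pandas 2.3.3 and numpy 2.4.6 under Python 3.11.15. The limma step was tested on simulated data, drawn from normal distributions with the mean and SD of each feature. Changes were given only to features with a mean log2 of at least 5, so the shares passing do not cover bHLH34 and NAC014. Of 100 features given a log2 change of 1, 32 passed the threshold, and of 100 given a change of 2, 58 passed. Of the 19324 features left unchanged, 19 passed. The precision is limited by the number of arrays. The members, the lists of other factors and markers, and the tests were chosen with earlier results of these data known. The 32 iron and 17 phosphate and immunity loci, of which 6 and 0 were found, and the 25 pairs were added later. Of the listed symbols, 2 belonged to other genes and were left out. Named were the members past an unadjusted p of 0.05 or without overlap, up to 4 per family by level and 8 per direction by change, which covered all 11, and of the other lists those past an unadjusted p of 0.05 and up to 3 by level. ILR3, PYE, AT1G18910, AT1G47400, AT1G74770, SPCH and MUTE were named outside this rule, after their values were seen. Deviations of arrays with the same replicate number correlated at 0.09, 0.02, 0.05, 0.09 and 0.18, so the numbers were not taken to pair the samples. The alternatives were other tests, array weights, normalizations, filters, features, a replicate block and each array left out.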

Additional observations from a re-analysis of the deposited data

Results flagged for a closer look

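The intensity of bHLH121 on 4tu-bZIP1 replicate 1 was 13.5, while the other 5 arrays of its group lay between 70.3 and 86.0. On the log2 scale, its gap to the nearest array was 0.891 of the range of the group, above the critical value of 0.625 for 6 samples. Chance alone flags about 1 in 20 groups, and 30 groups of arrays were looked at. The same array had the lowest correlation with the others over all features, and the part of its quality in this value was not tested.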

How the results depend on the processing

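Under all 23 alternatives no member passed the threshold. The smallest adjusted p was 0.487 by limma, for WRKY22 with array weights. WRKY22, WRKY20, bHLH115 and bHLH121 kept their sign throughout, and bHLH34 did so in the 22 alternatives that held it. The mean log2 of bHLH34 and of NAC014 was under 5, so neither had a value at a minimum mean log2 of 5. Of all features, 32 were higher and 4 lower. Array weights gave 66 and 27, the named probe sets alone 9 and 2, and the replicate block on replicates 1 to 5 gave 0 and 0 (18 higher without the block). An adjusted p under 0.05 left 21 higher. A minimum mean log2 of 5 left 1 lower, and a floor of 16 gave 7 lower. With an array left out there were 17 to 30 higher and 1 to 11 lower. Members higher at an unadjusted p under 0.05 numbered 2 with array weights (bHLH34 besides WRKY22), 0 under the replicate block and 0 at a minimum mean log2 of 5. They numbered 0 to 1 with an array left out. The block gave 1 lower member, WRKY20 (log2 fold change -0.57). The replicate numbers were not taken to pair the samples, and 4 of 10 arrays correlated best with their own number. Whether arrays of the same number were handled together was not tested.

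The median log2 fold change of the WRKY genes above the floor was -0.12, and it was 0.0217 with array weights and -0.17 to 0.0226 with an array left out. That of the bHLH genes above the floor was 0.13. It was -0.0557 with array weights and -0.0210 to 0.22 with an array left out, so its sign changed too. Array weights ran from 0.082 for 4tu-bZIP1 replicate 1 to 5.604 for 4tu-EV replicate 3. They turned the sign of NAC014 (0.13), WRKY47 (0.0532), WRKY6 (-0.00976), bHLH104 (-0.36) and PYE (0.0622). Quantile normalization turned that of PYE (0.0454). With an array left out, NAC014 ranged from -0.31 to 0.10, WRKY6 from -0.0503 to 0.0674, bHLH104 from -0.25 to 0.33 and PYE from -0.19 to 0.17. The cause was not tested. Signals at the floor limit WRKY42 and BHLH101, which can show no fall.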
